A study of Mus musculus with 9 samples.

Results

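Heme biosynthesis was followed in mouse liver after acetaminophen injury through 8 genes that encode enzymes of the pathway: Alas1, Alas2, Alad, Uros, Urod, Cpox, Ppox and Fech. They were found by symbol among the 28956 entries of the deposited table of raw read counts. All 8 passed the filter on low counts, as did 17582 genes in all. The enzyme that joins porphobilinogen units between the steps of Alad and Uros is not among the members and was not analysed here.

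The series holds 9 mRNA libraries in 3 groups of 3. Every mouse was of strain C57BL6J and 8 weeks old and received 300 mg/kg of acetaminophen (APAP), a common analgesic whose overdose damages the liver, into the peritoneum. In APAP_MSC, 500000 MSC were infused intravenously 90 min later, and in APAP_HDF the same number of HDF, while mice of the group APAP received no cells. MSC and HDF are not spelled out in the labels; MSC usually means mesenchymal stromal cells and HDF human dermal fibroblasts. Livers were profiled at 24 h, per the title of the series. There was no liver without APAP, so no value here is relative to healthy liver. The material was a piece of whole liver, although hepatocytes are given as the cell type in the labels. The labels do not say that each library came from a separate mouse, so the p-values measure only the spread between these libraries, which may be technical.

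Heme is an iron-containing ring that cytochromes, catalase and hemoglobin carry. Its synthesis starts in the mitochondrion, where ALAS joins glycine and succinyl-CoA to 5-aminolevulinate, continues in the cytosol and ends in the mitochondrion, where ferrochelatase inserts iron. ALAS has a form made in all tissues, Alas1, and a form of red cell precursors, Alas2. In the liver Alas1 sets the rate of the pathway, much of the heme goes into cytochromes P450, and heme itself lowers Alas1.

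Depth was 53267231 to 63175573 counts per library. The members had between 732 counts (Alas2 in an APAP_HDF library) and 36946 counts (Alas1 in an APAP_MSC library), all far above the 3 counts that a count of 0 would allow. That floor equals 0.0453 to 0.0567 CPM (counts divided by the TMM-scaled library total and put on the usual common scale), and covers counting error only. In this bulk tissue, fewer cells of a type and less RNA per cell cannot be told apart.

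The promoters of 3 members are shown because Alas2, Alad and Ppox were the members that passed the test. Windows of 250 bases before the start were taken from RefSeq on GRCm38.p6 and read in the direction of the gene; 7 of the 8 members were matched, with 10 windows, since Alas1, Alad and Uros each have a second RefSeq start. RefSeq starts do not always meet the outermost GENCODE starts that bound the gene positions given below. The outermost RefSeq start lies 700 bases inside the GENCODE gene for Alas1 and 42 bases inside it for Alas2, 145 bases outside it for Alad, and at the same base for Ppox. Only bases before both starts are shown, so the Alas2 run has 208 bases and none is given for Alas1. The runs lie at chrX:150547167-150547374 on the plus strand for Alas2, chr4:62520064-62520313 on the minus strand for Alad and chr1:171281187-171281436 on the minus strand for Ppox. Capitals mark matches, on either strand, to 7 searched motifs: GATAA (bound by GATA factors), CACCC (KLF factors), TGACNNNGC (the antioxidant response core), CACGTG (the E-box), GCGCANGC (NRF1), GGGCGG (SP1) and CCAAT (NF-Y).
Alas2: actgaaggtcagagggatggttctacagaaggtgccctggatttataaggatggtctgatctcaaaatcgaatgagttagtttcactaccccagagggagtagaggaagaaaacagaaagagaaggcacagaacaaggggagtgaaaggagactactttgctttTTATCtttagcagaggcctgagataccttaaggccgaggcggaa
Alad: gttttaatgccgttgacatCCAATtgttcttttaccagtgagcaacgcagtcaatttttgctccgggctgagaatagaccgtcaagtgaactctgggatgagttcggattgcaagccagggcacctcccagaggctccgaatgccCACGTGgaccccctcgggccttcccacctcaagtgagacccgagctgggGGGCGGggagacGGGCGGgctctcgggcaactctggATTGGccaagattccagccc
Ppox: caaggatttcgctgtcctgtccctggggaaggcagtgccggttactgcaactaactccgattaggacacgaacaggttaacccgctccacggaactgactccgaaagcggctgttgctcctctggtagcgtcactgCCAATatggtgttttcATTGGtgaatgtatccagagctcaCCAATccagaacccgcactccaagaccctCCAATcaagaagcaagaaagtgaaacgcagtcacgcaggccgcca
In the whole Alas2 window, a reverse-strand GATAA lies 86 to 82 bases before the RefSeq start. Closer to that start, past the GENCODE start and so not shown, 3 CACCC matches in a row, also on the reverse strand, end in a GGGCGG that overlaps the last of them. Alas1 held 1 CACCC and 1 GGGCGG before its outermost RefSeq start, 3 GCGCANGC and 1 CACCC before the other, and no GATAA before either. Before its outermost start Alad held 2 CCAAT, 2 GGGCGG and 1 CACGTG, and Ppox held 4 CCAAT and no match to the other 6 motifs. Over the 7 members, with the outermost RefSeq start of each, GATAA was in 2 (Alas2 and Cpox), CACCC in 3, CACGTG in 3 (Alad, Uros and Urod), GCGCANGC in 1 (Uros), GGGCGG in 5, CCAAT in 3 and TGACNNNGC in 0. With the second starts counted too, GATAA was in 3 members (Uros added), CACCC in 4 (Alad added) and GCGCANGC in 3 (Alas1 and Alad added), and the counts of the other 4 motifs stayed as they were. Like those of Alas1, the Uros windows lie inside the GENCODE gene, with RefSeq starts 777 and 7572 bases past the GENCODE start. Among 32817 mouse promoter windows of the same length the shares were 22.6% for GATAA, 52.0% for CACCC, 6.02% for CACGTG, 8.29% for GCGCANGC, 32.7% for GGGCGG, 33.8% for CCAAT and 10.2% for TGACNNNGC. A match describes letters and not a bound site.

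Whether the pathway differed when MSC followed the drug is read from APAP_MSC against APAP. Alas2, Alad and Ppox were higher in APAP_MSC, by 1.86-, 1.72- and 1.37-fold, and none of the 8 was lower past the test (edgeR quasi-likelihood test, adjusted p under 0.05). Over all genes tested, 6.38% were called in either direction and 2.83% as higher. The 3 APAP_MSC libraries lay above the 3 APAP libraries without overlap for 5 members, Alas2, Alad, Uros, Urod and Ppox, beside 13.7% of all genes. Alas1, Cpox and Fech overlapped between these groups. The median log2 fold change was 0.31 over the members and -0.0084 over all genes tested.

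The comparison of APAP_HDF with APAP asks the same of HDF. None of the 8 members was called by edgeR, nor by DESeq2 or limma-voom, and edgeR called 0 of the 17582 genes tested, a background of 0%. At an unadjusted p under 0.05, edgeR counted 1544 genes, 8.78%, and 2 members, Alas1 lower and Fech higher, while DESeq2 called 83 genes and limma-voom 0 at an adjusted p under 0.05. Fech alone among the members did not overlap between these groups, beside 5.66% of all genes that lay higher in this way. The median log2 fold change was -0.06 over the members and -0.0048 over all genes tested.

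The direct comparison of the infused groups, APAP_MSC with APAP_HDF, tests whether the members differed between MSC and HDF. Alas2, Alad and Ppox passed again, 2.06-, 1.81- and 1.41-fold higher in APAP_MSC (edgeR), and no member was lower past the test. Over all genes, 8.89% were called and 4.9% as higher. Groups did not overlap for 7 members, with 6 higher in APAP_MSC (Alas1, Alas2, Alad, Uros, Urod and Ppox) and Fech lower, beside 16.8% of all genes that lay higher and 16.4% that lay lower without overlap. The median log2 fold change was 0.44 over the members and -0.021 over all genes. This comparison uses the same APAP_MSC libraries as the comparison of APAP_MSC with APAP, so the calls in both are not independent. DESeq2 called 6 members here, adding Alas1 and Uros as higher and Fech as lower.

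**Figure D1:**
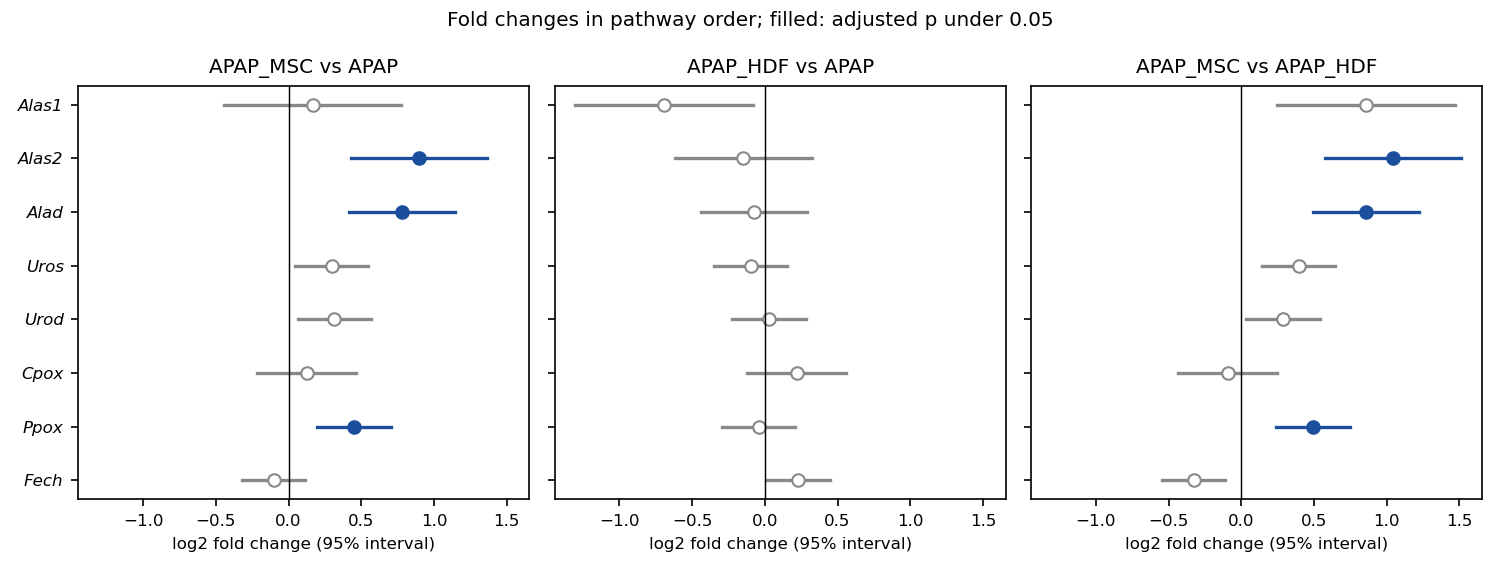
Log2 fold changes of the 8 members with their 95% intervals in the 3 comparisons, in pathway order from top to bottom; filled points have an edgeR adjusted p under 0.05. Alas2, Alad and Ppox are filled in both comparisons that involve APAP_MSC, and no point is filled for APAP_HDF with APAP.

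Alas1, the housekeeping form of ALAS, lies on chromosome 9 (106233455 to 106248654, minus strand, GRCm38). It was the member with the most counts and the one that varied most within groups. It had 580, 400 and 651 CPM in APAP_MSC, 316, 235 and 349 CPM in APAP_HDF, and 298, 620 and 536 CPM in APAP. The APAP_MSC libraries all lay above the APAP_HDF libraries, whereas the APAP libraries ran from within the APAP_HDF range to near the top of all 9. Means were 544 ± 129 CPM in APAP_MSC, 300 ± 58.8 CPM in APAP_HDF and 485 ± 167 CPM in APAP (SD, n = 3 each). The log2 fold change was 0.86 ± 0.28 (SE) in APAP_MSC over APAP_HDF (edgeR adjusted p = 0.0820) and 0.17 ± 0.27 in APAP_MSC over APAP (edgeR adjusted p = 0.777). In APAP_HDF over APAP it was -0.69 ± 0.27, with a 95% interval of -1.31 to -0.08, an unadjusted p of 0.0307 from the edgeR model and an adjusted p of 0.544. The call in APAP_MSC over APAP_HDF was reached without APAP library 1 (edgeR adjusted p = 0.0235), the lowest APAP library for Alas1, and when the fit held only these groups (edgeR adjusted p = 0.0290).

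Alas2, the erythroid form on chromosome X (150547375 to 150570638, plus strand), had the largest log2 fold changes of the members in both comparisons with APAP_MSC on top. It had 33.6, 25.9 and 35.7 CPM in APAP_MSC, 11.5, 14.2 and 20.5 CPM in APAP_HDF, and 20.7, 15.9 and 14.6 CPM in APAP. All 3 APAP_MSC libraries were above the other 6, and the APAP_HDF and APAP libraries were interleaved. Means were 31.7 ± 5.18 CPM in APAP_MSC, 15.4 ± 4.59 CPM in APAP_HDF and 17.1 ± 3.18 CPM in APAP (SD, n = 3 each). The log2 fold change was 0.90 ± 0.21 in APAP_MSC over APAP (edgeR adjusted p = 0.0349), 1.04 ± 0.21 in APAP_MSC over APAP_HDF (edgeR adjusted p = 0.0154) and -0.15 ± 0.21 in APAP_HDF over APAP (edgeR adjusted p = 0.867). The call against APAP was lost without APAP_MSC library 1, 2 or 3 (edgeR adjusted p = 0.102, 0.0795 and 0.102), without APAP_HDF library 2 (0.0535) and without APAP library 2 or 3 (0.0898 and 0.0914). The call against APAP_HDF was lost without APAP_MSC library 1 (edgeR adjusted p = 0.0549) and without APAP_HDF library 2 (0.0548).

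Since Alas2 marks red cell precursors, erythroid markers were read beside it. Of 20 listed, 18 had an entry. 8 of them had at most 7 counts in every library, among them Slc4a1, the red cell anion exchanger, at 0 in 6 of 9 libraries. The summed level of the 18 markers was 234 to 325 CPM in APAP_MSC, 151 to 159 CPM in APAP_HDF and 142 to 303 CPM in APAP. Globin genes made up 60.6% to 73.5% of that sum in APAP_MSC, 49.6% to 56.5% in APAP_HDF and 39.1% to 71.9% in APAP. The β-globin gene Hbb-bs had 46.9, 43.3 and 71.5 CPM in APAP_MSC, 24.3, 23.0 and 28.4 CPM in APAP_HDF, and 21.1, 64.8 and 17.8 CPM in APAP. The α-globin gene Hba-a1 had 53.2, 42.3 and 82.2 CPM in APAP_MSC, 23.3, 23.2 and 27.7 CPM in APAP_HDF, and 23.2, 67.2 and 17.2 CPM in APAP. Both globins were thus high in every APAP_MSC library and in APAP library 2, where Alas2 was at 15.9 CPM, between the other APAP libraries.

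Of the 10 erythroid markers tested, edgeR, DESeq2 and limma-voom each called 0 in APAP_MSC against APAP and 0 in APAP_HDF against APAP, with 3 and 1 at an unadjusted edgeR p under 0.05. Hbb-bs had a log2 fold change of 0.64 in APAP_MSC over APAP (edgeR adjusted p = 0.460), and 1.48 without APAP library 2 (edgeR adjusted p = 0.0106). Without that library Alas2 had a log2 fold change of 0.86 (edgeR adjusted p = 0.0898). In APAP_MSC against APAP_HDF, Hbb-bs had a log2 fold change of 1.10 (edgeR adjusted p = 0.178) and Hba-a1 one of 1.26 (edgeR adjusted p = 0.146). Without APAP library 2, which is in neither group but in the shared fit, both passed (edgeR adjusted p = 0.00758 and 0.0131). Neither passed without any other single library. Of the 10, edgeR called 2 higher there and 1 lower, beside 8.89% of all genes called. At an unadjusted edgeR p under 0.05, 7 were higher and 1 lower. Without overlap, 8 lay higher and 1 lower in APAP_MSC than in APAP_HDF, beside 16.8% and 16.4% of all genes. The 2 called higher were Car1 (log2 fold change 2.94, edgeR adjusted p = 0.0296) and Slc25a37 (0.52, edgeR adjusted p = 0.0491). Car1 is a carbonic anhydrase of red cells with 0 to 50 counts per library, and Slc25a37 is the mitochondrial iron importer. The red cell spectrin gene Sptb was lower (-1.25, edgeR adjusted p = 0.0455) and was not called by limma-voom. With single libraries left out, the log2 fold change of Car1 ran from 2.43 to 5.20 and its edgeR adjusted p reached 0.115 (lost without APAP_MSC library 2 or 3, or APAP_HDF library 1 or 3). That of Sptb reached 0.156 (lost without any APAP_MSC or APAP_HDF library, or APAP library 1). The ratio of Alas2 to Hbb-bs was 0.715, 0.597 and 0.499 in APAP_MSC, 0.474, 0.619 and 0.720 in APAP_HDF, and 0.979, 0.246 and 0.820 in APAP. The ratios overlapped between all groups. The part of blood or red cell precursors in the Alas2 result was not tested.

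**Figure D2:**
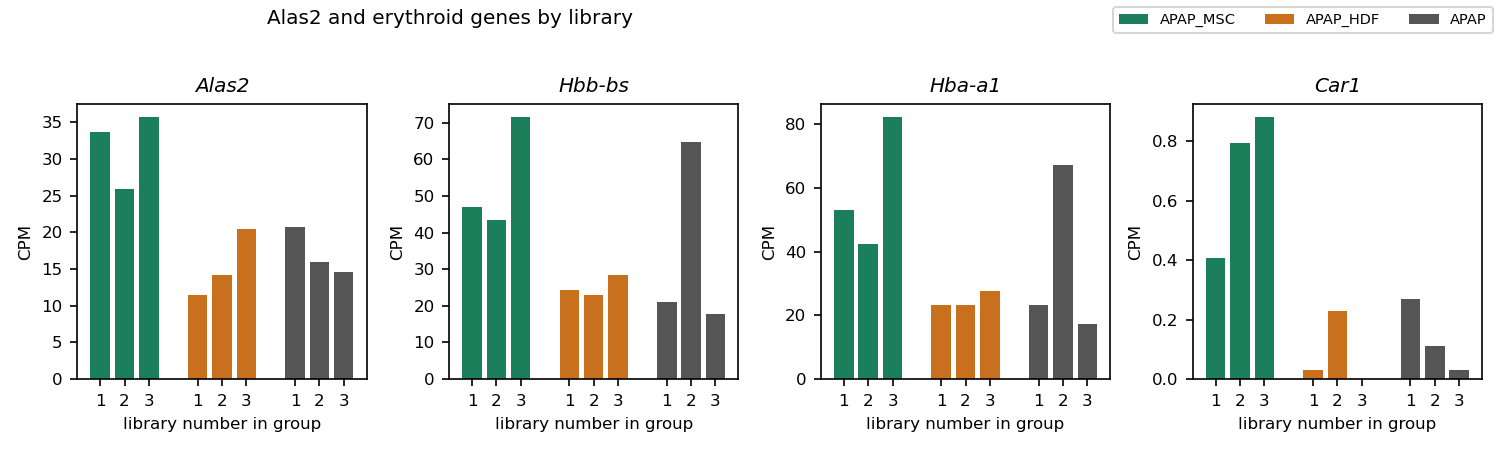
CPM of Alas2, the globin genes Hbb-bs and Hba-a1, and Car1 in each of the 9 libraries, as bars that start at 0, with APAP_MSC at the left of each panel, APAP_HDF in the middle and APAP at the right. The globins of APAP library 2 (64.8 CPM for Hbb-bs) reach the level of the APAP_MSC libraries, and its Alas2 (15.9 CPM) does not.

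Alad, on chromosome 4 (62509169 to 62519918, minus strand), joins 2 molecules of 5-aminolevulinate to porphobilinogen. It had 165, 179 and 157 CPM in APAP_MSC, 74.4, 97.0 and 105 CPM in APAP_HDF, and 73.7, 114 and 104 CPM in APAP. Every APAP_MSC library was above every other library, and the gap to the highest of them, APAP library 2, was 157 against 114 CPM. Means were 167 ± 11.2 CPM in APAP_MSC, 92.2 ± 15.9 CPM in APAP_HDF and 97.1 ± 20.9 CPM in APAP (SD, n = 3 each). The log2 fold change was 0.78 ± 0.17 in APAP_MSC over APAP (edgeR adjusted p = 0.0224), 0.86 ± 0.17 in APAP_MSC over APAP_HDF (edgeR adjusted p = 0.0119) and -0.07 ± 0.17 in APAP_HDF over APAP (edgeR adjusted p = 0.925). The call against APAP was lost without APAP_MSC library 1, 2 or 3 (edgeR adjusted p = 0.0663, 0.106 and 0.0516), and that against APAP_HDF without APAP_MSC library 2 (edgeR adjusted p = 0.0604).

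Uros and Urod act next in the cytosol, where uroporphyrinogen III synthase closes the ring and uroporphyrinogen decarboxylase trims its side chains. Uros (chromosome 7, 133686243 to 133710072, minus strand) had 21.3, 21.0 and 18.5 CPM in APAP_MSC, 17.2, 15.1 and 14.0 CPM in APAP_HDF, and 15.4, 17.3 and 16.9 CPM in APAP. Urod (chromosome 4, 116989965 to 116994413, minus strand) had 63.1, 67.4 and 65.0 CPM in APAP_MSC, 43.4, 57.5 and 59.6 CPM in APAP_HDF, and 51.7, 53.3 and 52.1 CPM in APAP. For both genes the APAP_MSC libraries were the 3 highest of the 9, with differences smaller than those of Alad. Uros averaged 20.3 ± 1.53 CPM in APAP_MSC, 15.4 ± 1.62 CPM in APAP_HDF and 16.5 ± 0.995 CPM in APAP (SD, n = 3 each). Its log2 fold change was 0.30 ± 0.11 in APAP_MSC over APAP (edgeR adjusted p = 0.150), 0.39 ± 0.11 in APAP_MSC over APAP_HDF (edgeR adjusted p = 0.0552) and -0.10 ± 0.12 in APAP_HDF over APAP (edgeR adjusted p = 0.829). The comparison with APAP_HDF passed for Uros without APAP_HDF library 1 or APAP library 1 (edgeR adjusted p = 0.0410 and 0.0471). Urod averaged 65.2 ± 2.14 CPM in APAP_MSC, 53.5 ± 8.77 CPM in APAP_HDF and 52.4 ± 0.881 CPM in APAP. Its log2 fold change was 0.32 ± 0.12 in APAP_MSC over APAP (edgeR adjusted p = 0.129), 0.29 ± 0.12 in APAP_MSC over APAP_HDF (edgeR adjusted p = 0.148) and 0.03 ± 0.12 in APAP_HDF over APAP (edgeR adjusted p = 0.960). Without APAP_HDF library 1, where Urod was lowest, it passed against APAP (edgeR adjusted p = 0.0296).

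Cpox and Ppox carry out the oxidations at the mitochondrion that yield protoporphyrin. Cpox (chromosome 16, 58670292 to 58717636, plus strand) had 148, 143 and 149 CPM in APAP_MSC, 126, 152 and 192 CPM in APAP_HDF, and 113, 133 and 157 CPM in APAP. The groups overlapped in all 3 comparisons, and the APAP_MSC libraries varied least, with a mean of 147 ± 3.35 CPM against 156 ± 33.4 CPM in APAP_HDF and 134 ± 22.0 CPM in APAP (SD, n = 3 each). Its log2 fold changes were 0.13 ± 0.16 in APAP_MSC over APAP (95% interval -0.21 to 0.47, edgeR adjusted p = 0.692), -0.09 ± 0.16 in APAP_MSC over APAP_HDF (-0.43 to 0.25, edgeR adjusted p = 0.749) and 0.22 ± 0.16 in APAP_HDF over APAP (-0.12 to 0.56, edgeR adjusted p = 0.698). Ppox (chromosome 1, 171275990 to 171281186, minus strand) had 34.6, 34.9 and 28.2 CPM in APAP_MSC, 23.4, 21.6 and 24.3 CPM in APAP_HDF, and 21.7, 26.1 and 23.7 CPM in APAP. The APAP_MSC libraries were the 3 highest, with library 3 closest to the rest. Ppox averaged 32.6 ± 3.79 CPM in APAP_MSC, 23.1 ± 1.37 CPM in APAP_HDF and 23.8 ± 2.19 CPM in APAP (SD, n = 3 each). Its log2 fold change was 0.45 ± 0.12 in APAP_MSC over APAP (edgeR adjusted p = 0.0425), 0.49 ± 0.12 in APAP_MSC over APAP_HDF (edgeR adjusted p = 0.0247) and -0.04 ± 0.12 in APAP_HDF over APAP (edgeR adjusted p = 0.938). The call against APAP was lost without APAP_MSC library 1 or 2 (edgeR adjusted p = 0.142 and 0.168), APAP_HDF library 2 (0.0607), and APAP library 1 or 3 (0.103 and 0.0811), and in limma-voom (0.0502). The call against APAP_HDF was lost without APAP_MSC library 1 or 2 (edgeR adjusted p = 0.0953 and 0.112) and APAP_HDF library 1 or 2 (0.0502 and 0.0831).

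Fech, on chromosome 18, encodes ferrochelatase, the last enzyme of the pathway, and passed the edgeR test in no comparison. It had 129, 142 and 146 CPM in APAP_MSC, 161, 180 and 183 CPM in APAP_HDF, and 144, 143 and 159 CPM in APAP. The APAP_HDF libraries were the 3 highest of the 9, and the APAP_MSC and APAP libraries overlapped. Means were 139 ± 8.84 CPM in APAP_MSC, 175 ± 12.2 CPM in APAP_HDF and 149 ± 9.04 CPM in APAP (SD, n = 3 each). The log2 fold change was -0.33 ± 0.10 in APAP_MSC over APAP_HDF (edgeR adjusted p = 0.0618), 0.23 ± 0.10 in APAP_HDF over APAP (edgeR adjusted p = 0.552) and -0.10 ± 0.10 in APAP_MSC over APAP (edgeR adjusted p = 0.607). DESeq2 gave an adjusted p of 0.0248 for APAP_MSC against APAP_HDF.

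**Figure D3:**
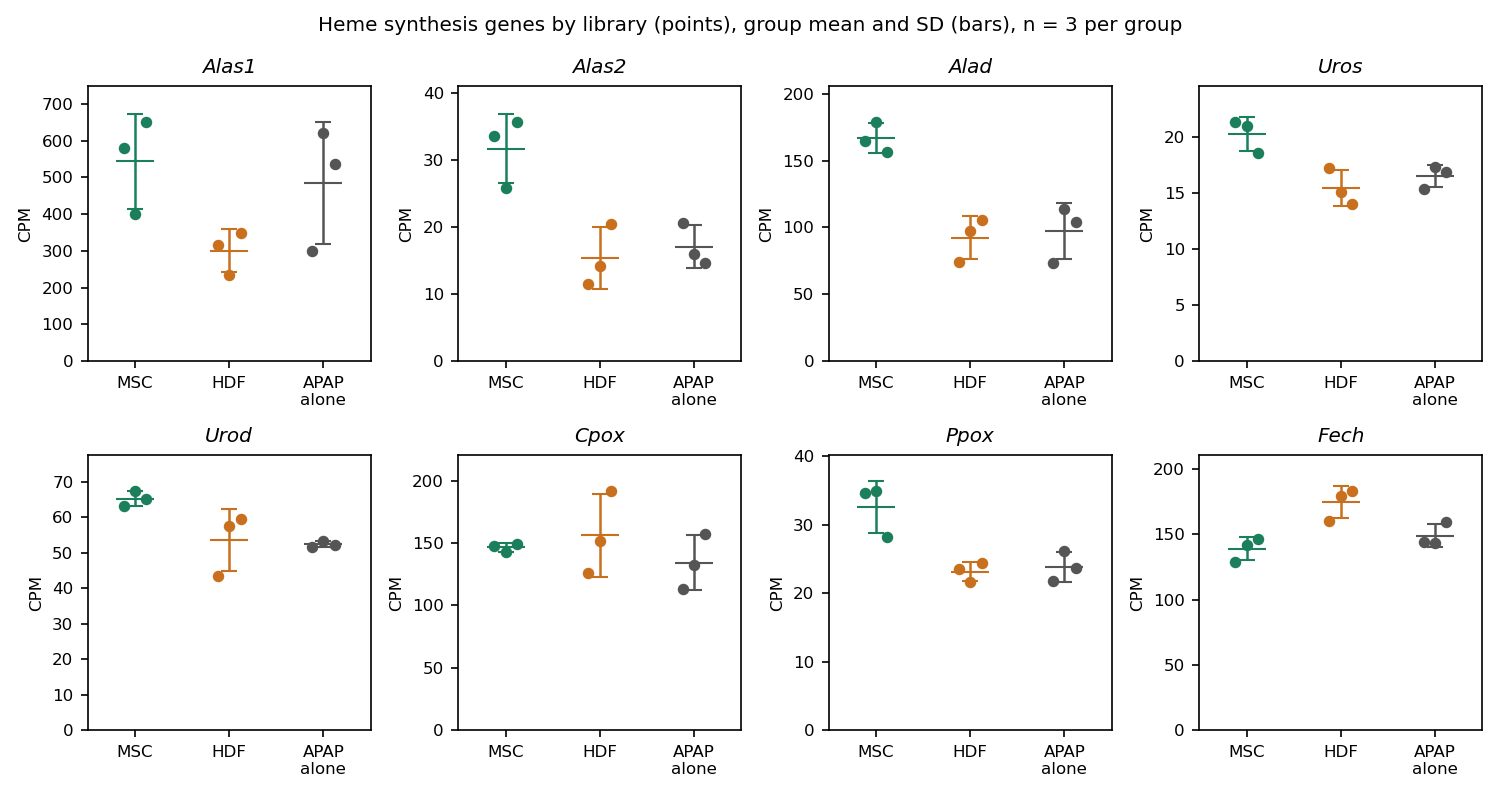
CPM of each member in the 9 libraries (points), with the group mean and SD (bars, n = 3 per group) and each axis starting at 0. APAP_MSC libraries sit apart above the others for Alas2, Alad, Uros, Urod and Ppox; APAP_HDF libraries sit above the others for Fech.

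Antisense neighbours were checked, because the sources used here do not state whether counting used strand and reads of overlapping genes cannot then be told apart. In GENCODE M21 (GRCm38), exons of B4galt3 on the opposite strand covered 17.5% of Ppox exon bases, and those of Apex2 covered 12.9% of Alas2 exon bases. Cpox shared 3.06% with Gpr15 and Alas1 shared 7.53% with an antisense transcript. No other gene's exons overlapped Alad, Uros, Urod or Fech. B4galt3, a galactosyltransferase gene, had a log2 fold change of -0.16 in APAP_MSC over APAP (edgeR adjusted p = 0.617) and Apex2, a DNA repair nuclease gene, one of -0.37 (edgeR adjusted p = 0.117). Against APAP_HDF the log2 fold changes were -0.42 for B4galt3 (edgeR adjusted p = 0.140) and -0.38 for Apex2 (edgeR adjusted p = 0.0927). The part of antisense reads in the counts of Ppox and Alas2 was not tested.

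Levels between members were compared per length, as CPM per kb of the union of exons. The top 2 were Alas1 and Alad, with 88.1 ± 20.9 and 89.2 ± 6.0 CPM per kb in APAP_MSC (SD, n = 3), 48.6 ± 9.53 and 49.3 ± 8.52 in APAP_HDF, and 78.5 ± 27.0 and 51.9 ± 11.2 in APAP. By this length the levels of these 2 overlapped in every group. By the longest transcript, the means of Alas1 and Alad were 160 and 94.3 CPM per kb in APAP_MSC. They were 88.3 and 52.1 in APAP_HDF, and 143 and 54.9 in APAP. Urod and Cpox followed with 25.2 and 22.0 CPM per kb in APAP_MSC, 20.7 and 23.5 in APAP_HDF, and 20.2 and 20.2 in APAP, and overlapped in APAP_HDF and APAP but not in APAP_MSC, where Urod was higher. Alas2, Fech, Ppox and Uros were lowest, at 13.2, 10.1, 7.21 and 5.67 CPM per kb in APAP_MSC, 6.41, 12.6, 5.13 and 4.31 in APAP_HDF, and 7.10, 10.8, 5.28 and 4.62 in APAP. Alas2 therefore stood above Fech in APAP_MSC and below it in APAP_HDF and APAP, without overlap in any group. Ppox and Uros overlapped in APAP_HDF and APAP, and Alas2 and Ppox in APAP_HDF. With the longest transcript as the length, Fech came before Alas2 and Cpox before Urod in every group, Alas1 was first in every group, and Ppox was last. The ratio of Alas1 to Alas2 counts was 17.3, 15.5 and 18.2 in APAP_MSC, 27.5, 16.5 and 17.1 in APAP_HDF, and 14.4, 38.9 and 36.7 in APAP.

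The members also differed in how much libraries of a group varied. The pooled SD of log2 CPM within groups was 0.42 for Alas1, 0.32 for Alas2, 0.25 for Alad, 0.22 for Cpox, 0.15 for Urod, 0.14 for Ppox, 0.12 for Uros and 0.094 for Fech. The median over all genes tested was 0.25. Alas1 was thus more variable than 73.0% of genes and Fech than 8.33%.

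Across the 9 libraries, Pearson's r between members was 0.91 for Alad with Ppox, 0.89 for Uros with Ppox, 0.88 for Alad with Urod and -0.82 for Uros with Fech. After the group means were removed these were 0.54, 0.57, 0.67 and -0.62. Alas2 with Urod also kept its sign (0.83 and 0.53). Some of the other pairs kept their sign and some did not. Alas1 with Alad kept it (0.62 and 0.46), while Alas2 with Uros went from 0.55 to -0.84 and Alas2 with Ppox from 0.72 to -0.28. Alas1 and Alas2, which encode the same step, had r of 0.50, and 0.016 after removal of the group means. These are descriptions over 9 libraries that share their groups and depth. Among 9365 genes of at least 5 CPM, the pattern most like that of Alas1 was Ptbp1, a splicing regulator (r = 0.92), followed by Pfkfb3 and Alkbh1, and the least like was Rab1b (r = -0.93). For Alas2 these were Mmp15 (0.96), Tars and Plcg1, with Hps1 least (-0.96); for Alad, Abhd11 (0.99), Dap and Pemt, with Dock1 least (-0.98). Uros was nearest to Fdxr (0.97), Mal2 and Tsc22d1 and farthest from Rad21 (-0.98). Urod was nearest to Rdh7 (0.99), Rfng and Prodh2 and farthest from Slc39a10 (-0.99). Cpox was nearest to Bcl7b (0.98), Gnl1 and Herpud2 and farthest from Copg2 (-0.97). Ppox was nearest to Selenok (0.98), Kdelr1 and Ebp and farthest from Ptbp3 (-0.98), and Fech to Faf1 (0.98), Axin1 and Scyl3 and from Nudcd2 (-0.98).

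Genes that feed, house or move intermediates of the pathway in the mitochondrion formed a list of 21, all tested. In APAP_MSC against APAP 3 were higher and 0 lower, with a median log2 fold change of 0.19, and against APAP_HDF again 3 were higher and 0 lower, with a median of 0.18. In APAP_HDF against APAP edgeR, DESeq2 and limma-voom each called 0, with 4 at an unadjusted edgeR p under 0.05 and a median of -0.0064. Tmem14c, which carries protoporphyrinogen into mitochondria in mouse red cell precursors, had 102, 107 and 96.5 CPM in APAP_MSC, 53.4, 61.3 and 51.9 CPM in APAP_HDF, and 68.1, 67.8 and 59.9 CPM in APAP. The APAP_MSC libraries lay apart above both other groups. Its log2 fold change was 0.64 ± 0.10 over APAP (edgeR adjusted p = 0.00876; 0.0556 without APAP_MSC library 2) and 0.87 ± 0.10 over APAP_HDF (edgeR adjusted p = 0.00127). Fdxr, the reductase that supplies electrons for iron-sulfur clusters and steroid synthesis, had log2 fold changes of 0.52 over APAP (edgeR adjusted p = 0.0342) and 0.54 over APAP_HDF (edgeR adjusted p = 0.0228). Abcb10, an inner-membrane transporter, was higher against APAP (0.45, edgeR adjusted p = 0.0387). Slc25a38, the glycine carrier, had a log2 fold change of 0.18 over APAP (edgeR adjusted p = 0.400). With single libraries left out, the adjusted p of Fdxr reached 0.144 over APAP (lost without APAP_MSC library 1 or 2, APAP_HDF library 2 or any APAP library) and 0.103 over APAP_HDF (lost without APAP_MSC library 1 or 2, or APAP_HDF library 2 or 3), and that of Abcb10 0.133 (lost without any APAP_MSC or APAP library, or APAP_HDF library 2). That of Slc25a37, which is also among the erythroid markers, reached 0.155 over APAP_HDF (lost without any APAP_MSC library, APAP_HDF library 2 or 3, or APAP library 2).

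Heme breakdown, uptake and export were read from 16 genes, all tested. In APAP_MSC against APAP edgeR called 1 higher and 3 lower, with a median log2 fold change of 0.17 over the list. Against APAP_HDF edgeR called 3 higher and 1 lower, with a median of 0.12. DESeq2 called 2 higher and 3 lower against APAP. Against APAP_HDF it called 3 higher and 2 lower, with Hmox1 among the lower. In APAP_HDF against APAP edgeR, DESeq2 and limma-voom each called 0, with 3 at an unadjusted edgeR p under 0.05 and a median of -0.05. Hmox1, the inducible heme oxygenase that opens the heme ring, had 25.3, 12.7 and 15.0 CPM in APAP_MSC, 47.0, 32.7 and 20.0 CPM in APAP_HDF, and 45.3, 49.7 and 37.9 CPM in APAP. The APAP_MSC and APAP libraries did not overlap, and the APAP_HDF libraries overlapped both of these groups. The log2 fold change of Hmox1 was -1.32 ± 0.33 in APAP_MSC over APAP (edgeR adjusted p = 0.0498, 0.0233 to 0.174 with single libraries left out, and lost without APAP_MSC library 2 or 3, APAP_HDF library 2 or any APAP library). The ratio of Alas1 to Hmox1 counts was 22.9, 31.5 and 43.3 in APAP_MSC, 6.73, 7.18 and 17.4 in APAP_HDF, and 6.59, 12.5 and 14.2 in APAP, and all APAP_MSC ratios were above the rest.

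Cd163, the macrophage receptor for hemoglobin bound to haptoglobin, was lower in APAP_MSC than in APAP (log2 fold change -1.30, edgeR adjusted p = 0.0337, up to 0.143 and lost without any APAP_MSC library, or APAP library 2 or 3). Limma-voom called Hmox1 there but not Cd163. Monocyte and macrophage markers, 8 in number, were read beside these genes. Their summed level was 47.6 to 66.7 CPM in APAP_MSC, 74.4 to 107 CPM in APAP_HDF and 100 to 143 CPM in APAP. EdgeR called 4 of the 8 lower in APAP_MSC than in APAP, DESeq2 called 6 and limma-voom 2. The summed level of 6 markers of Kupffer cells, the resident liver macrophages, overlapped between all groups. It was 92.4 to 161 CPM in APAP_MSC, 61.8 to 138 CPM in APAP_HDF and 109 to 271 CPM in APAP. The part of macrophages in the Hmox1 and Cd163 results was not tested. Slc48a1, which moves heme out of lysosomes, had 87.3, 76.9 and 89.3 CPM in APAP_MSC, 150, 135 and 134 CPM in APAP_HDF, and 111, 120 and 120 CPM in APAP. Its libraries fell into 3 ranges without overlap, lowest in APAP_MSC and highest in APAP_HDF. The log2 fold change was -0.47 over APAP (edgeR adjusted p = 0.0200, up to 0.118 and lost without any APAP_MSC library or APAP library 2) and -0.73 over APAP_HDF (edgeR adjusted p = 0.00240).

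Hebp1, a heme-binding protein, was higher in APAP_MSC than in APAP (log2 fold change 0.82, edgeR adjusted p = 0.0184, up to 0.0919 and lost without any APAP_MSC library) and than in APAP_HDF (0.90, edgeR adjusted p = 0.00868). The bilirubin transferase gene Ugt1a1 (0.52, edgeR adjusted p = 0.0319) and the porphyrin exporter gene Abcg2 (0.44, edgeR adjusted p = 0.0459) were higher in APAP_MSC than in APAP_HDF. Ugt1a1 lost the call without APAP_MSC library 2 or 3 or any APAP_HDF library (edgeR adjusted p up to 0.130), and Abcg2 without any APAP_MSC or APAP_HDF library (up to 0.133). In APAP_MSC over APAP, Hpx, the plasma heme carrier, had a log2 fold change of 0.45 (edgeR adjusted p = 0.544) and Blvrb, a biliverdin reductase, one of 0.19 (edgeR adjusted p = 0.493). With single libraries left out, Hpx ran from 0.11 to 0.74 and Blvrb from 0.066 to 0.31, both lowest without APAP library 1.

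Known regulators of Alas1 transcription were read from a list of 15, all tested. EdgeR called 0 in each of the 3 comparisons, with 3 at an unadjusted p under 0.05 in APAP_MSC against APAP, 3 in APAP_HDF against APAP and 5 in APAP_MSC against APAP_HDF. Limma-voom also called 0 in each, and DESeq2 called Nr1d1 as higher in APAP_MSC in both comparisons with that group, and no other gene of the list. Ppargc1a, the coactivator that induces Alas1 in fasted mouse liver, had 6.94, 8.33 and 9.51 CPM in APAP_MSC, 7.99, 9.13 and 7.71 CPM in APAP_HDF, and 10.6, 8.72 and 7.27 CPM in APAP, with full overlap. Nr1d1, the clock repressor REV-ERBα, had 48.7, 51.5 and 28.2 CPM in APAP_MSC, 22.6, 18.5 and 23.4 CPM in APAP_HDF, and 17.0, 34.5 and 21.4 CPM in APAP. Its APAP_MSC libraries overlapped the APAP libraries, and the log2 fold change over APAP was 0.82 (edgeR adjusted p = 0.124). Nr1i3, the xenobiotic receptor CAR, had a log2 fold change of 0.15 in APAP_MSC over APAP (edgeR adjusted p = 0.860).

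Proteins that use heme in the liver, with 3 electron-transfer partners that carry none (Por, Cyb5r3 and Uqcrb, of which edgeR called none), formed a list of 27, of which 24 were tested. In APAP_MSC, 9 were higher and 0 lower than in APAP, with a median log2 fold change of 0.52, and 12 were higher and 0 lower than in APAP_HDF, with a median of 0.54. In APAP_HDF against APAP edgeR and limma-voom called 0 and DESeq2 2, Cyp2c50 and Cyp7a1, both lower, with 5 at an unadjusted edgeR p under 0.05, all lower, and a median of -0.09. Of the cytochromes P450, Cyp3a11 averaged 1842 ± 143 CPM in APAP_MSC, 403 ± 109 CPM in APAP_HDF and 587 ± 198 CPM in APAP (SD, n = 3 each), and was 3.14-fold higher in APAP_MSC than in APAP (edgeR adjusted p = 0.00694). Cyp7a1, which starts the classic route from cholesterol to bile acids (log2 fold change 3.05, edgeR adjusted p = 0.00340), Cyp27a1, a mitochondrial sterol hydroxylase (0.85, edgeR adjusted p = 0.00515), and Cyp2c50, a drug-metabolizing P450 (2.25, edgeR adjusted p = 0.0140, but 0.0556 without APAP_MSC library 2), were higher as well. So were Suox, the heme-containing sulfite oxidase (0.73, edgeR adjusted p = 0.0160, but 0.0764 without APAP_MSC library 2), and Cyb5a, cytochrome b5 (0.60, edgeR adjusted p = 0.0184, up to 0.0929 and lost without any APAP_MSC library). All 6 were also higher in APAP_MSC than in APAP_HDF, with edgeR adjusted p from 0.000563 for Cyp7a1 to 0.0101 for Suox, whose call was lost without APAP_MSC library 2 (0.0519). Por, the flavoprotein that passes electrons to these P450s, had a log2 fold change of -0.17 in APAP_MSC over APAP (edgeR adjusted p = 0.635).

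**Figure D4:**
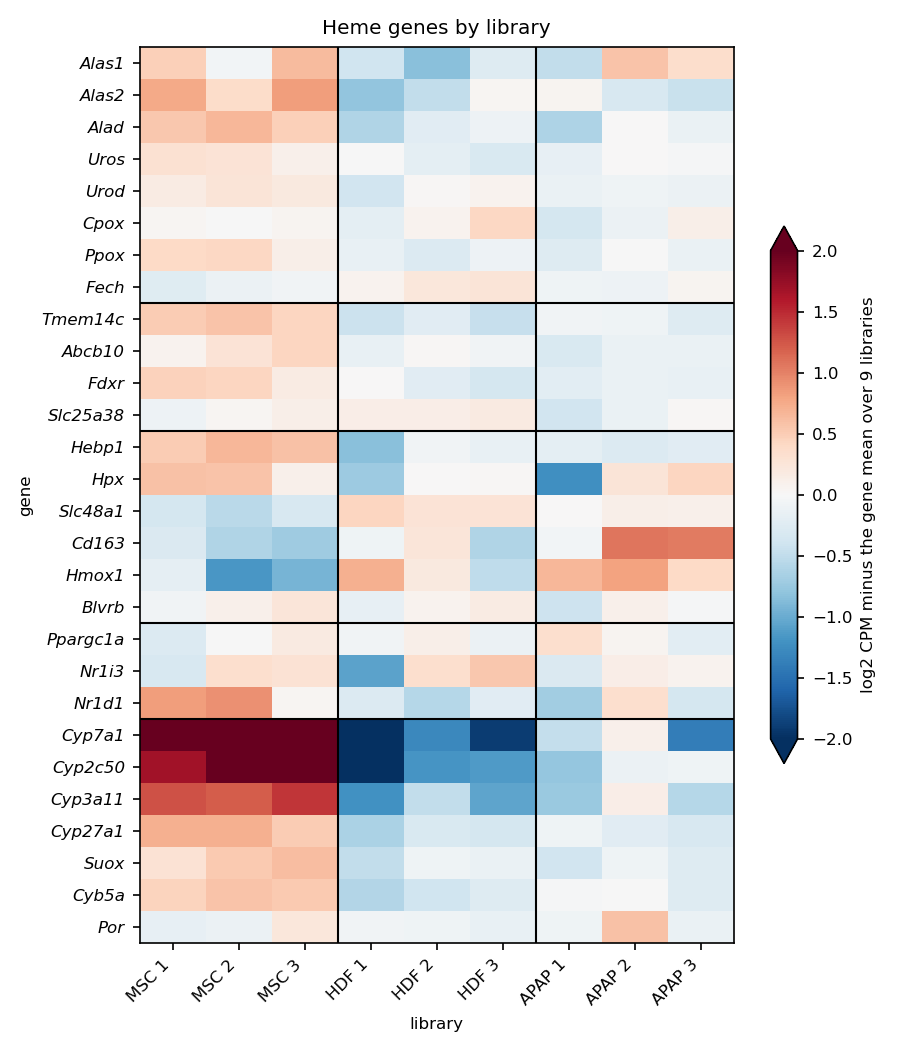
Log2 CPM minus the gene's mean over the 9 libraries, on a colour scale cut at -2 and 2, with APAP_MSC at the left, APAP_HDF in the middle and APAP at the right. From top to bottom the blocks hold the 8 members, then selected genes of the lists of mitochondrial partners, heme handling, Alas1 regulators and heme-using proteins. The last block holds Por and genes chosen by smallest adjusted p in these libraries. The blocks of mitochondrial partners and heme handling also hold called genes chosen in this way, beside fixed readouts. The colours of these blocks therefore do not stand for the whole lists. The APAP_MSC columns are red for Alas2, Alad, Ppox and all of the last block but Por, and blue for Hmox1, Cd163 and Slc48a1.

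Markers of the liver's own cells were read beside these results. Hepatocyte markers, 7 in number, summed to 108840 to 125531 CPM in APAP_MSC, 102133 to 133266 CPM in APAP_HDF and 105821 to 123939 CPM in APAP, and edgeR called 0 of them in each comparison. At an unadjusted edgeR p under 0.05, 2 hepatocyte markers passed in APAP_MSC against APAP, 0 in APAP_HDF against APAP and 1 in APAP_MSC against APAP_HDF, and DESeq2 called 1, Ttr, as higher in APAP_MSC than in APAP, while limma-voom called 0. In APAP_MSC against APAP, 3 of 4 neutrophil markers, 2 of 5 sinusoidal endothelial markers and 1 of 5 stellate markers were lower, while 0 of 6 Kupffer and 0 of 5 cholangiocyte markers were called by edgeR or limma-voom, with 1 and 2 at an unadjusted edgeR p under 0.05 and the same numbers called by DESeq2. In APAP_MSC against APAP_HDF, edgeR called 2 of 8 macrophage and 2 of 5 endothelial markers lower and 3 of 5 cholangiocyte markers higher. DESeq2 called 4 cholangiocyte markers higher and 1 lower, and that 1 lay lower without overlap (edgeR log2 fold change -0.63). The part of these cell types in the members' values was not tested.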

How the data were processed

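Poly(A) RNA was sequenced in 9 liver libraries. The submitters' processing notes name HISAT2, Subread, DESeq2 and the builds mm39 and GRCm39; versions are not given in the sources used here. The authors deposited raw counts per gene symbol, used here, and normalized counts, a scaled signal that the authors deposited and that equals the counts over median-of-ratios size factors within 0.0699%. Column headers give the group and no replicate number, so library numbers follow column order within a group.

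From the raw counts, edgeR 4.0.16 in R 4.3.3 fitted a quasi-likelihood model with robust moderation with a term for the group to the 9 libraries together, after filterByExpr (17582 genes, holding 99.966% of counts) and TMM scaling (0.934 to 1.11; common biological coefficient of variation 0.197). P-values are two-sided and Benjamini-Hochberg adjusted over all genes tested, and a gene was called at an adjusted p under 0.05. SE and 95% intervals come from the same fit. DESeq2 1.42.0, voom of limma 3.58.1, other scaling, filters and groupings, and leaving out each library were the alternatives. Of these steps, only the edgeR fit was run on simulated counts, for APAP_MSC against APAP, and its recovery of small differences is not reported here.

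Exon lengths, gene positions and overlaps are from GENCODE M21 (GRCm38) and promoters from RefSeq (GRCm38.p6), matched by symbol. The members and lists were chosen with earlier results of these data known. Named beside the members are up to 6 called genes of each list by smallest adjusted p, 13 fixed readouts, and the 3 genes most like and the 1 least like each member (log2 CPM, prior count 2, mean of at least 5 CPM); B4galt3, Apex2, Ttr and Gpr15 are named outside this rule, with their values already seen. The table has 24 repeated symbols and 22 turned into dates; no member is among them.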

Additional observations from a re-analysis of the deposited data

How the results depend on the processing

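Over 16 alternatives to each member's fold change, 120 values of APAP_HDF against APAP, 111 of APAP_MSC against APAP and 112 of APAP_MSC against APAP_HDF kept their direction and their side of the threshold. A call was lost in 15 values of APAP_MSC against APAP and in 7 of APAP_MSC against APAP_HDF, and gained in 1 and 8. With DESeq2, 2050 genes were called in APAP_MSC against APAP in place of 1121, 83 in APAP_HDF against APAP in place of 0, and 2537 in APAP_MSC against APAP_HDF in place of 1563; 6 members were called in the last of these in place of 3. Median-of-ratios scaling added Uros there (edgeR adjusted p = 0.0493). The cause was not tested. Without 1 library at a time, between 97 and 1753 genes and 0 and 4 members were called in APAP_MSC against APAP, 361 to 1793 genes and 1 to 5 members in APAP_MSC against APAP_HDF, and 0 to 32 genes and 0 members in APAP_HDF against APAP. The lowest gene counts, 97 and 361, came without APAP_MSC library 2, and fewer libraries were tested in each such fit.

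Signs turned only for uncalled values and only with 1 library left out. In APAP_HDF against APAP the log2 fold change became 0.020 for Alas2 and 0.057 for Alad without APAP_HDF library 1, 0.015 for Alas2 without APAP library 1, 0.053 for Alad and 0.023 for Ppox without APAP library 2, -0.024 for Urod and 0.0030 for Ppox without APAP_HDF library 2, and -0.055 for Urod without APAP_HDF library 3. With single libraries left out these ranged from -0.41 to 0.020 for Alas2, -0.23 to 0.057 for Alad, -0.055 to 0.16 for Urod and -0.10 to 0.023 for Ppox. Cpox in APAP_MSC against APAP_HDF ranged from -0.22 to 0.094, positive without APAP_HDF library 3. In APAP_MSC against APAP, Alas1 ranged from -0.071 to 0.39, negative without APAP library 1, and Por from -0.29 to 0.11, positive without APAP library 2. With the longest transcript as the length, 16 of 24 per-length levels moved by more than 1 SD. No paired analysis was possible because the columns carry no replicate numbers. Every member had at least 732 counts in every library, well above the floor of 3 counts; the effect of more libraries per group was not tested.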
